A study of Homo sapiens with 24 samples.

Results

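The genes described here are 38 human genes of cholesterol synthesis, fatty acid synthesis, sterol uptake and efflux, and of the SREBP system that controls them. They were taken by symbol from a table of raw counts for 60623 genes, and all 38 symbols were found. The table comes from RNA sequencing of HT-29 cells, an epithelial cell line from a human colon cancer, grown in wells to near confluence. Unedited, wild-type (WT) cells were compared with GPRC5A knockout (KO) cells, and each genotype spent 8 h with 0.1% DMSO, with 50 µM 7FTA, with 10 ng/mL TNFα, or with TNFα and 7FTA at those same amounts. GPRC5A is a membrane receptor of class C, 7FTA is 7-fluorotryptamine, a tryptamine that carries a fluorine atom, and TNFα is an inflammatory cytokine. Each of these 8 groups had 3 libraries of poly(A) RNA, 24 libraries in all.

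Cholesterol and fatty acids are both built from acetyl-CoA in the cytosol. The mevalonate pathway joins acetyl-CoA units and turns them into farnesyl pyrophosphate, further enzymes convert that through squalene and lanosterol into cholesterol, and a separate branch makes saturated and monounsaturated fatty acids. Most of these genes are known targets of SREBP1 and SREBP2, the membrane-bound transcription factors made from SREBF1 and SREBF2, which SCAP escorts to the Golgi for cleavage when sterols are low and which INSIG1 and INSIG2 hold back in the endoplasmic reticulum when sterols are high. Efflux genes such as ABCA1 and ABCG1 are known instead as targets of LXR, a nuclear receptor activated by oxysterols.

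Total counts per library ran from 16782857 to 27247407. Levels are given as CPM, counts scaled to the size of each library with TMM factors. GPRC5A, the targeted gene, stood with DMSO at 207 ± 5.84 CPM in WT cells (SD, n = 3) and at 69.8 ± 2.26 CPM in KO cells (SD, n = 3), and was lower in KO cells under the other 3 treatments as well, so part of its RNA remained. The titles name no separate KO clones, and a difference between the genotypes cannot be told apart from a difference between the cells that were compared. The labels state DMSO for the DMSO groups alone, so the vehicle and the added agents cannot be told apart. They do not say that the 3 libraries of a group came from separate cultures, and p-values therefore measure the spread between libraries, which may be technical. The running numbers in the titles put all libraries without TNFα before those with it, and an effect of that order cannot be told apart from TNFα. The epithelial genes EPCAM (578 to 727 CPM), KRT8 (7540 to 10149 CPM) and LGALS4 (565 to 1206 CPM) were high in all 24 libraries, and CDX2, a colon transcription factor, lay between 0.632 and 3.42 CPM. The leukocyte genes PTPRC and CD3E reached at most 0.173 and 0.0395 CPM, the endothelial gene CDH5 and the hepatocyte gene ALB were at 0, and the fibroblast gene COL3A1 reached at most 0.0596 CPM. Other genes of these lists were higher. The leukocyte gene CD14 lay between 1.98 and 8.42 CPM, the endothelial gene PECAM1 between 0.401 and 1.45, and the fibroblast gene COL1A1 between 0.340 and 1.18. In RNA from whole wells, a change in the level per cell and a change in the share of cells that express a gene cannot be told apart.

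Of the 38 genes, 37 had enough counts to be tested. The exception was FADS2, a fatty acid desaturase, with 0 to 10 counts per library. Divided by exon length, SCD, the desaturase that makes oleate, stood highest at 476 CPM per kb of exon (mean of the 24 libraries), followed by SQLE at 241, DHCR7 at 118, HMGCS1 at 112, FASN at 101 and ACLY at 91.6 CPM per kb. The lowest of the tested genes were ABCG1 at 2.61, ABCA1 at 0.208 and FADS1, a desaturase of polyunsaturated fatty acids, at 0.191 CPM per kb. ABCA1 had 26 to 74 counts per library and FADS1 20 to 72, and both are measured with wide errors. Across the 24 libraries the level of ACSS2 spanned the widest range, with the highest library at 4.66 times the lowest, while ACLY moved least, at 1.18 times. The strand setting of the counting is not given in the sources used here, so reads from overlapping genes cannot be told apart. CYP51A1 shares 2844 of its 3584 exon bases with a same-strand gene model at 0 counts. How reads on such shared bases were counted is not given either, so the level of CYP51A1 may be too low. ACAT2 shares 397 bases with the abundant gene TCP1 on the opposite strand, and SREBF1 shares 556 bases with RAI1. On the opposite strand MVK shares 306 bases with MMAB, which had more counts than MVK (34143 against 22018 over all libraries), and NPC1 shares 604 bases with RMC1 (9241 counts against 24577).

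The promoters of 5 of the genes are shown, from SREBP control (SREBF2, INSIG1), the mevalonate pathway (MVD) and fatty acid synthesis (SCD, ACSS2). Genes from squalene to cholesterol and of uptake and efflux are not among them. All 5 were higher with 7FTA on average in the data below. They do not stand for the whole set, and the shares over all windows follow. RefSeq's promoter table (GRCh38.p14) holds 33 of the 38 genes and lacks ACAT2, FDFT1, SQLE, ABCG1 and FASN. Each line gives the 250 bases before the RefSeq transcript start, 5′ to 3′ on the gene's strand. Capitals mark matches, on either strand, to the core letters TCACCCCAC of the sterol regulatory element, to the E-box TCACNTGA, and to CCAAT, the box bound by NF-Y, a factor known to act beside SREBP.

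SREBF2 (chr22:41832855-41833104, plus strand): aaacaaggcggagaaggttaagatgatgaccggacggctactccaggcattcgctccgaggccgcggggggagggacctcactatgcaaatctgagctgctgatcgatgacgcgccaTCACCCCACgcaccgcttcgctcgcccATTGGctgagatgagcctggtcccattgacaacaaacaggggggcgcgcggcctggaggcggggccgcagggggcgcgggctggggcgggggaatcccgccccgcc

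INSIG1 (chr7:155297628-155297877, plus strand): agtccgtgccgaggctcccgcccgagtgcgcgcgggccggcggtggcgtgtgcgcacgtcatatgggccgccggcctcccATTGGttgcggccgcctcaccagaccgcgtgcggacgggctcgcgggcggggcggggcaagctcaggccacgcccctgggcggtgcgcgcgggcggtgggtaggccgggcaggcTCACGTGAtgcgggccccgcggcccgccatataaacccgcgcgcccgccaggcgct

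MVD (chr16:88663092-88663341, minus strand): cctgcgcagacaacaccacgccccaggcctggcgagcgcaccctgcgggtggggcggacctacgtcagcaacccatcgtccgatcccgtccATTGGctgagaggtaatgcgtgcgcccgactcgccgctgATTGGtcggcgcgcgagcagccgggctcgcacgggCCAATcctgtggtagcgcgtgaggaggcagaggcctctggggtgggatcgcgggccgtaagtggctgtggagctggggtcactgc

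SCD (chr10:100346983-100347232, plus strand): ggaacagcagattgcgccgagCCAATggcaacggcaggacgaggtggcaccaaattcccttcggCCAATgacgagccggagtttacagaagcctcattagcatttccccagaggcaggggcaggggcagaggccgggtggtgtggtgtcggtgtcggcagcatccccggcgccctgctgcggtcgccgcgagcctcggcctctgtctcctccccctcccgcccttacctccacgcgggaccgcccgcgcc

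ACSS2 (chr20:34874739-34874988, plus strand): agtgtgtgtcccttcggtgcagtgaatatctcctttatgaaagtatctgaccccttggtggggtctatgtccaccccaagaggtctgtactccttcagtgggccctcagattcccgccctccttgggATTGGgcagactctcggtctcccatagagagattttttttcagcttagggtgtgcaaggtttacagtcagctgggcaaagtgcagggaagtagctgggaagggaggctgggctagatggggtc

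TCACCCCAC was found in the SREBF2 window, 133 bases before the start, and in none of the other 32 windows of these genes. Only these exact letters were sought, so sites with other letters were not counted. It was present in 1 of 33 windows (3.03%) beside 0.377% of the 10068 windows of tested genes in the table. The E-box letters were found at INSIG1, 56 bases before the start, and at EBP, which made 2 of 33 (6.06%) beside 4.16%. CCAAT on either strand occurred in 19 of 33 windows (57.6%) beside 36.7% of those of tested genes, with 3 copies at MVD, 2 at SCD and 1 each at SREBF2, INSIG1 and ACSS2. GGGCGG, the letters bound by SP1, occurred in 30 of 33 (90.9%) beside 70.1%. These shares were counted over the whole RefSeq windows, which run 50 bases past the start, on both strands, and a CCAATTGG run counts once on each strand. For every gene shown, the RefSeq start lies inside the gene as GENCODE draws it, so part of each window does too. The ACSS2 window lies wholly inside its gene (chr20:34872146-34927962). The letters are a description and say nothing about binding in these cells.

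Genes were compared with edgeR's quasi-likelihood F test on the counts, fitted to all 24 libraries and the 14059 genes that passed a filter on low counts. A gene is called higher or lower when its p, adjusted by Benjamini-Hochberg over those 14059 genes, was under 0.05, and every adjusted p below comes from that test. Effects are log2 fold changes with a standard error (SE). The median effect over all tested genes lay between -0.01 and 0.01 in every comparison under TMM, and its value farthest from 0 under DESeq2's scaling was -0.0102, for TNFα in KO cells.

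Averaged over WT and KO cells, each with and without TNFα, adding 7FTA raised most genes of the set. Over the mean of these 4 backgrounds, 32 of the 37 tested genes were called higher and 1 lower, where 8.86% of all tested genes were called higher and 7.58% lower. The median effect of the 37 genes was 0.18 on the log2 scale, beside -0.01 to 0.01 over all tested genes. The largest rise was that of ACSS2, the cytosolic enzyme that makes acetyl-CoA from acetate, at 1.09 ± 0.04 (2.13-fold, adjusted p = 1.61e-24). By role, 12 of 12 genes from squalene to cholesterol were called higher, 6 of 7 in the mevalonate pathway, 4 of 5 of SREBP control, 3 of 5 of uptake, transport and efflux, and 7 of 8 of fatty acid and phospholipid synthesis. The gene called lower was PMVK, which phosphorylates phosphomevalonate (-0.09 ± 0.03, adjusted p = 0.0182); without replicate 1 of WT cells with DMSO its adjusted p was 0.053. STARD4, FADS1, INSIG2 and ABCA1 were not called.

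In WT cells without TNFα, 12 of 37 genes were called higher with 7FTA and 0 lower, beside 1.44% and 0.605% of all tested genes. In KO cells without TNFα it was 17 higher and 0 lower, beside 1.45% and 0.932%; this count fell to 11 without replicate 3 of KO cells with DMSO and to 11 without replicate 3 of KO cells with 7FTA. On top of TNFα, 22 genes in WT cells were called higher (2.99% of all tested genes, with 2.55% lower) and 26 in KO cells (3.99%, with 3.53% lower), again with 0 lower among these genes in either. DESeq2 also called 0 of these genes lower in the 4 comparisons, and at an unadjusted p under 0.05 edgeR found 0, 0, 1 and 0 lower. The 3 libraries with 7FTA did not overlap the 3 without it for 24 and 22 of the 37 genes in WT and KO cells, and for 30 and 30 in the presence of TNFα. Over all tested genes such separation was found for 17.7%, 18.1%, 21.1% and 21.6%. The 4 comparisons use different libraries, and 11 of the 37 genes (29.7%) were called higher in each of them, beside 0.526% of all tested genes. These 11 were ACAT2, HMGCS1, MVD, FDPS, FDFT1, SQLE, LSS, DHCR7, INSIG1, ACSS2 and SCD. Of them, 3 lost a call when 1 library was left out. For SQLE this was in WT cells without replicate 1 (adjusted p 0.072) or 2 (0.106) of the DMSO group or 2 (0.0805) or 3 (0.0543) of the 7FTA group, and on top of TNFα without replicate 2 of WT cells with TNFα (0.183) or 1 (0.139) or 3 (0.128) with both. For HMGCS1 it was in WT cells without replicate 2 of the DMSO group (0.117) or 3 of the 7FTA group (0.0674), and in KO cells without replicate 2 (0.128) or 3 (0.058) of the DMSO group or 3 of the 7FTA group (0.0722). For INSIG1 it was in KO cells without replicate 3 of the 7FTA group (0.0701).

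**Figure D1:**
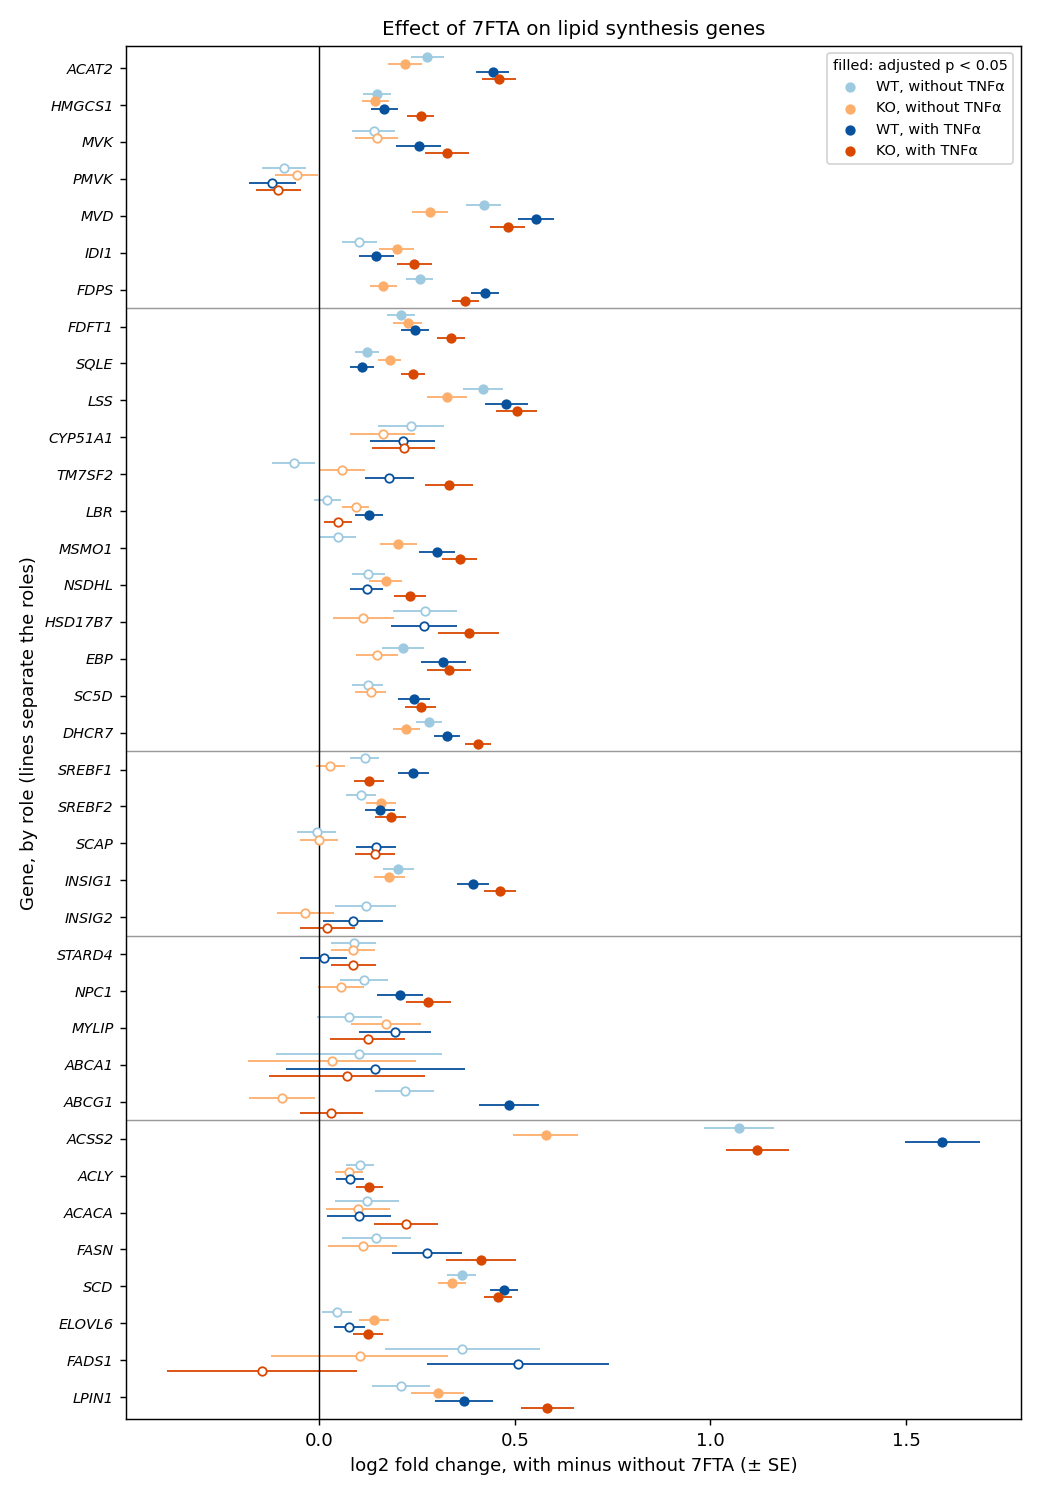
Effect of 7FTA on each tested gene, as the log2 fold change with minus without 7FTA (x axis, bars ± SE), in WT and KO cells without and with TNFα; filled points passed an adjusted p of 0.05 and grey lines separate the roles. Nearly all points lie right of 0, ACSS2 lies farthest right in all 4 backgrounds, and no gene was called lower in any single background.

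The mevalonate enzymes were led by MVD, which decarboxylates mevalonate pyrophosphate to isopentenyl pyrophosphate (chr16:88651935-88663161, GRCh38). In WT cells its 3 libraries had 74.3, 73.9 and 69.6 CPM with DMSO, 103, 95.5 and 93.02 with 7FTA, 79.04, 79.2 and 78.2 with TNFα and 113, 113 and 122 with both. In KO cells they had 73.02, 76.98 and 81.02 CPM with DMSO, 93.4, 90.3 and 97.7 with 7FTA, 87.3, 87.2 and 90.4 with TNFα and 124, 117 and 128 with both. Every library with 7FTA lay above the matching libraries without it, and the groups with both TNFα and 7FTA were the highest in each genotype. The mean effect was 0.43 ± 0.02 (adjusted p = 1.57e-20). FDPS, which makes farnesyl pyrophosphate (chr1:155308748-155320666), had 199.5, 192 and 184 CPM in WT cells with DMSO, 226, 234 and 227 with 7FTA, 202, 199 and 191 with TNFα and 258, 265 and 270.5 with both. In KO cells FDPS had 163, 158 and 161 CPM with DMSO, 182, 182 and 177 with 7FTA, 176, 164 and 163 with TNFα and 217, 221 and 214 with both. Again no library with 7FTA overlapped those without it, and the KO libraries lay below the WT libraries of the same treatment. FDPS rose by 0.30 ± 0.02 on average (adjusted p = 5.11e-19). ACAT2, the enzyme of the first step (chr6:159760328-159779055), had 158, 152 and 141 CPM in WT cells with DMSO, 181, 182 and 182 with 7FTA, 148, 137 and 135 with TNFα and 186, 193 and 192 with both. In KO cells the ACAT2 values were 95.04, 92.9 and 88.05 CPM with DMSO, 108, 110.4 and 103 with 7FTA, 87.4, 87.4 and 87.1 with TNFα and 118, 129 and 113 with both. Libraries with and without 7FTA were separate in each background, although each KO library lay under every WT library. The mean effect on ACAT2 was 0.35 ± 0.02 (adjusted p = 5.21e-18). HMGCS1, which makes HMG-CoA, rose less, by 0.18 ± 0.02, and MVK and IDI1, the kinase and the isomerase of the pathway, by 0.22 ± 0.03 and 0.17 ± 0.02.

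From squalene to cholesterol, DHCR7, the reductase of the last step (chr11:71428193-71452868), had 479.6, 479.8 and 487 CPM in WT cells with DMSO, 587, 588 and 582 with 7FTA, 524, 503 and 524 with TNFα and 655, 626 and 665 with both. In KO cells it had 358, 365 and 367 CPM with DMSO, 413, 423 and 436 with 7FTA, 375, 387 and 392 with TNFα and 494, 489.9 and 543 with both. The libraries with 7FTA were higher in each background without overlap. DHCR7 rose by 0.31 ± 0.02 on average (adjusted p = 5.7e-20). LSS, lanosterol synthase (chr21:46188141-46228824), had 65.2, 64.3 and 65.97 CPM in WT cells with DMSO, 89.4, 88.9 and 83.3 with 7FTA, 57.1, 51.3 and 53.8 with TNFα and 77.8, 71.4 and 76.8 with both. Its KO libraries had 55.5, 62.4 and 61.1 CPM with DMSO, 76.96, 70.4 and 77.2 with 7FTA, 52.3, 54.4 and 58.6 with TNFα and 77.7, 74.6 and 82.6 with both. Here too 7FTA separated the libraries in each background, while the genotypes overlapped in the presence of TNFα. The effect on LSS was 0.43 ± 0.03 (adjusted p = 2.61e-18). FDFT1, squalene synthase, had 393, 375 and 374 CPM in WT cells with DMSO, 447, 443 and 431 with 7FTA, 387, 367 and 378 with TNFα and 432, 452 and 457 with both. In KO cells FDFT1 stood at 202, 203 and 195 CPM with DMSO, 233, 236 and 231 with 7FTA, 211, 228 and 216 with TNFα and 258, 291 and 277 with both. The rise with 7FTA was found in each background, from a lower base in KO cells. It was 0.25 ± 0.02 on average (adjusted p = 9.61e-16). SQLE, the epoxidase that follows, rose by 0.16 ± 0.02. The enzymes that strip methyl groups from the sterol ring rose by 0.23 ± 0.02 (MSMO1), 0.16 ± 0.02 (NSDHL) and 0.26 ± 0.04 (HSD17B7). The isomerase EBP rose by 0.25 ± 0.03, the desaturase SC5D by 0.19 ± 0.02 and the demethylase CYP51A1 by 0.21 ± 0.04. The sterol reductases TM7SF2 and LBR rose least, by 0.13 ± 0.03 and 0.07 ± 0.02.

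**Figure D2:**
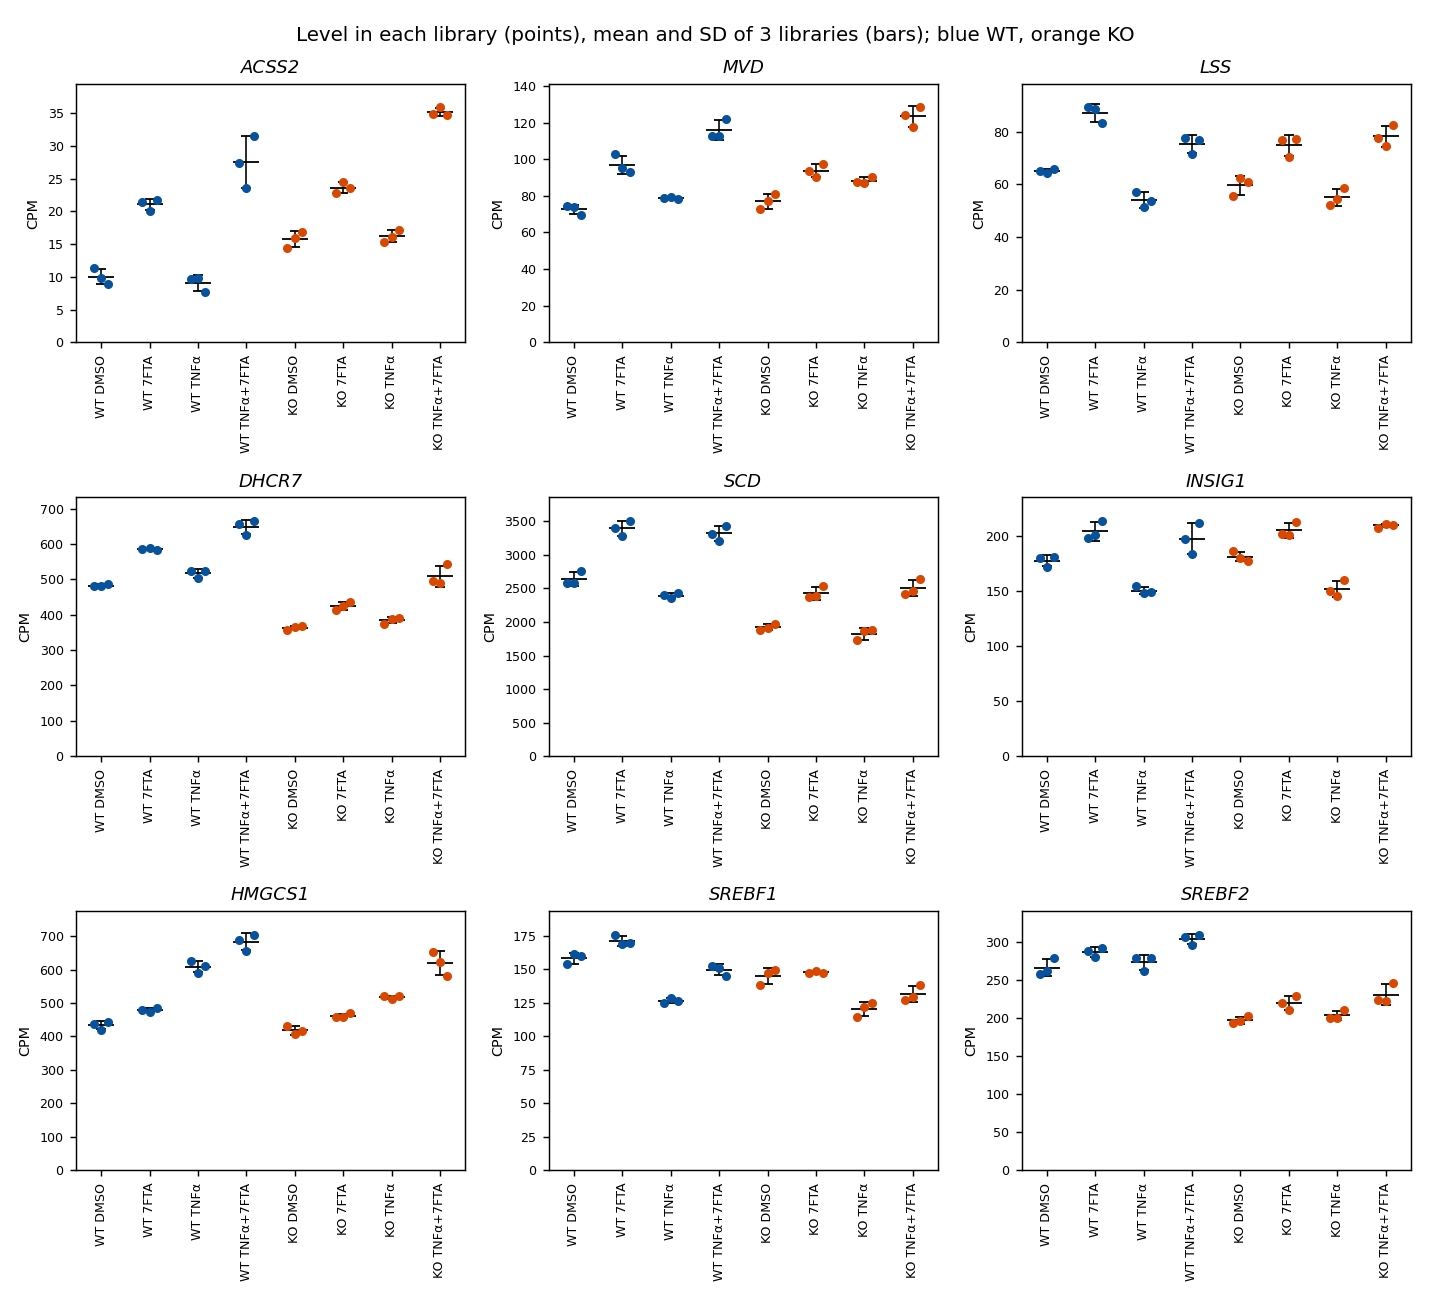
Level in CPM (y axes from 0) of 9 genes in each library (points) of the 8 groups, with the mean and SD of 3 libraries (bars), WT in blue and KO in orange. ACSS2 runs from 7.71 to 35.9 CPM with the 7FTA groups on top, SREBF2 and DHCR7 are lower in KO cells, HMGCS1 rises with TNFα, and SREBF1 falls with it.

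Among the regulators, INSIG1, which retains the SREBP escort in the endoplasmic reticulum and is itself an SREBP target (chr7:155297776-155310235), had 179.9, 172 and 180.4 CPM in WT cells with DMSO, 198, 201 and 213 with 7FTA, 154, 148 and 149 with TNFα and 197, 183 and 211 with both. The KO libraries had 186, 179.9 and 177 CPM with DMSO, 201, 200.5 and 213 with 7FTA, 149.7, 146 and 160.2 with TNFα and 207, 211 and 209.7 with both. INSIG1 was higher in all libraries with 7FTA than in the matching ones without it, lowest with TNFα alone, and overlapped between the genotypes under every treatment. Its mean rise was 0.31 ± 0.02 (adjusted p = 6.48e-17). SREBF2 (chr22:41833079-41907308), whose product drives mainly cholesterol genes, had 259, 262 and 279 CPM in WT cells with DMSO, 288, 280.3 and 293 with 7FTA, 279.6, 262 and 279 with TNFα and 307, 297 and 309.98 with both. For KO cells the SREBF2 values were 193, 196 and 202 CPM with DMSO, 219.8, 211 and 229 with 7FTA, 200.4, 199.98 and 211 with TNFα and 224, 222 and 247 with both. The libraries with 7FTA were above those without it in each background, by a narrow margin, and the KO libraries were below the WT libraries throughout. SREBF2 rose by 0.15 ± 0.02 on average (adjusted p = 3.74e-08); singly it was called in KO cells and with TNFα in both genotypes, and the call was lost without 1 of 3 libraries in KO cells (adjusted p 0.0775 to 0.14) and without 1 of 2 in WT cells with TNFα (0.0554 to 0.11). SREBF1 (chr17:17810399-17837002), whose product drives mainly fatty acid genes, had 154, 161 and 159 CPM in WT cells with DMSO, 176, 169 and 169 with 7FTA, 125, 128 and 126 with TNFα and 153, 151 and 145 with both. In KO cells SREBF1 had 138, 147 and 149 CPM with DMSO, 147, 149 and 147 with 7FTA, 115, 121 and 124 with TNFα and 127, 129 and 138 with both. The libraries with and without 7FTA overlapped in KO cells without TNFα and were separate in the other 3 backgrounds. SREBF1 rose by 0.13 ± 0.02 (adjusted p = 9.15e-07), which was called singly on top of TNFα alone, and in KO cells that call was lost without replicate 1 (0.228) or 2 (0.0507) of the TNFα group or replicate 3 with both (0.224). SCAP, the escort, was called at 0.07 ± 0.03 with an adjusted p of 0.0492, and leaving out any 1 of 17 libraries ended that call (0.0508 to 0.126).

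In the class of uptake, transport and efflux, NPC1, which exports cholesterol from lysosomes (chr18:23506184-23586898), had 40.8, 36.7 and 38.5 CPM in WT cells with DMSO, 41.3, 43.2 and 41.4 with 7FTA, 51.6, 50.6 and 48.6 with TNFα and 64.7, 54.05 and 55.8 with both. KO libraries of NPC1 had 39.99, 42.9 and 45.7 CPM with DMSO, 42.3, 44.6 and 46.8 with 7FTA, 47.99, 51.5 and 52.2 with TNFα and 59.3, 59.6 and 65.3 with both. The genotypes overlapped under every treatment, and in KO cells without TNFα the libraries with and without 7FTA overlapped. NPC1 rose by 0.16 ± 0.03 with 7FTA (adjusted p = 3.83e-05). ABCG1, an efflux transporter of cholesterol (chr21:42199689-42297244), had 15.4, 15.6 and 15.7 CPM in WT cells with DMSO, 18.9, 18.02 and 17.3 with 7FTA, 17.4, 16.7 and 19.3 with TNFα and 24.4, 25.8 and 24.4 with both. In KO cells ABCG1 had 11.1, 11.9 and 12.2 CPM with DMSO, 11.8, 10.8 and 10.5 with 7FTA, 15.7, 12.9 and 13.7 with TNFα and 13.7, 14.3 and 15.5 with both. In WT cells the libraries with 7FTA lay above those without it, and in KO cells they overlapped. ABCG1 was called over the mean (0.16 ± 0.04, adjusted p = 0.00284) and, singly, in WT cells with TNFα (0.48 ± 0.08). MYLIP, a ubiquitin ligase that removes lipoprotein receptors (chr6:16129125-16148248), had 14.5, 16.7 and 15.4 CPM in WT cells with DMSO, 15.7, 16.2 and 17.05 with 7FTA, 12.6, 13.6 and 12.1 with TNFα and 14.5, 15.3 and 13.96 with both. MYLIP in KO cells had 10.9, 11.8 and 9.11 CPM with DMSO, 11.9, 12.2 and 11.4 with 7FTA, 8.89, 10.3 and 9.35 with TNFα and 9.58, 11.3 and 10.1 with both. The libraries with and without 7FTA overlapped in 3 of the 4 backgrounds, and the call over the mean (0.14 ± 0.05, adjusted p = 0.0243) was lost when any 1 of 6 libraries was left out (0.0501 to 0.077). ABCA1, the other efflux transporter, lay between 1.35 and 3.20 CPM and its effect was 0.09 ± 0.11 (adjusted p = 0.672).

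In fatty acid and phospholipid synthesis, ACSS2 had 11.3, 9.86 and 8.97 CPM in WT cells with DMSO, 21.4, 20.1 and 21.7 with 7FTA, 9.66, 9.82 and 7.71 with TNFα and 27.4, 23.6 and 31.5 with both. The KO libraries of ACSS2 had 14.4, 15.9 and 16.9 CPM with DMSO, 22.8, 24.5 and 23.5 with 7FTA, 15.3, 16.02 and 17.2 with TNFα and 34.9, 35.9 and 34.8 with both. Without 7FTA the KO libraries lay above all WT libraries, and 7FTA lifted both genotypes without overlap. The rise was 2.10-fold in WT cells (1.07 ± 0.09, adjusted p = 5.93e-12) and 1.49-fold in KO cells (0.58 ± 0.08, adjusted p = 7.43e-06). On top of TNFα it was 3.02-fold in WT cells (1.59 ± 0.10, adjusted p = 3.36e-17) and 2.17-fold in KO cells (1.12 ± 0.08, adjusted p = 1.76e-14). SCD (chr10:100347124-100364834) had 2578, 2583 and 2757 CPM in WT cells with DMSO, 3394, 3287 and 3506 with 7FTA, 2398, 2352 and 2436 with TNFα and 3315, 3211 and 3437 with both. In KO cells SCD had 1886, 1905 and 1975 CPM with DMSO, 2371, 2381 and 2541 with 7FTA, 1725, 1872 and 1875 with TNFα and 2415, 2459 and 2639.5 with both. Each background showed a clear step up with 7FTA, and KO libraries were lower than WT libraries of the same treatment. SCD rose by 0.41 ± 0.02 on average (adjusted p = 1.08e-19). LPIN1, a phosphatidate phosphatase that makes diacylglycerol (chr2:11677595-11827409), had 21.4, 21.7 and 21.2 CPM in WT cells with DMSO, 23.9, 23.4 and 26.8 with 7FTA, 26.5, 24.4 and 27.3 with TNFα and 36.1, 29.9 and 35.3 with both. LPIN1 in KO cells had 30.3, 29.97 and 28.9 CPM with DMSO, 34.1, 37.00 and 38.6 with 7FTA, 29.9, 35.8 and 34.03 with TNFα and 47.5, 47.8 and 53.98 with both. Libraries with 7FTA lay above those without it in each background, and KO libraries lay above WT libraries of the same treatment. LPIN1 rose by 0.37 ± 0.04 (adjusted p = 4.04e-11). The core enzymes of fatty acid synthesis moved less: FASN, the synthase itself, by 0.24 ± 0.04, ACACA, which makes malonyl-CoA, by 0.14 ± 0.04, ACLY, which makes acetyl-CoA from citrate, by 0.10 ± 0.02, and the elongase ELOVL6 by 0.10 ± 0.02. The call for ACACA (adjusted p = 0.032) was lost when any 1 of 12 libraries was left out (0.0511 to 0.0677). FADS1 was at 0.21 ± 0.11 and not called (adjusted p = 0.233).

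In each single background ACSS2 had the smallest or the next smallest p of these genes. In WT cells with 7FTA alone, after ACSS2, the called genes with the smallest p were MVD (0.42 ± 0.05), SCD (0.36 ± 0.04), DHCR7 (0.28 ± 0.03), LSS (0.42 ± 0.05), FDPS (0.26 ± 0.03), ACAT2 (0.28 ± 0.04), FDFT1 (0.21 ± 0.04), INSIG1 (0.20 ± 0.04) and HMGCS1 (0.15 ± 0.03). In KO cells with 7FTA alone they were SCD (0.34 ± 0.04), ACSS2, DHCR7 (0.22 ± 0.03), LSS (0.33 ± 0.05), MVD (0.28 ± 0.05), FDFT1 (0.23 ± 0.04), SQLE (0.18 ± 0.03), ACAT2 (0.22 ± 0.04), FDPS (0.16 ± 0.04) and INSIG1 (0.18 ± 0.04). In the class of uptake, transport and efflux, no gene (STARD4, NPC1, MYLIP, ABCA1 or ABCG1) was called with 7FTA alone in either genotype. This class holds no lipoprotein receptor. On top of TNFα, WT cells had ACSS2, FDPS (0.42 ± 0.04), MVD (0.55 ± 0.05), SCD (0.47 ± 0.04), ACAT2 (0.44 ± 0.04), DHCR7 (0.33 ± 0.03), INSIG1 (0.39 ± 0.04), LSS (0.48 ± 0.05), FDFT1 (0.24 ± 0.04) and MSMO1 (0.30 ± 0.05) in front. KO cells with TNFα had ACSS2, DHCR7 (0.41 ± 0.03), INSIG1 (0.46 ± 0.04), SCD (0.46 ± 0.04), MVD (0.48 ± 0.04), FDPS (0.37 ± 0.04), ACAT2 (0.46 ± 0.04), LSS (0.50 ± 0.05), FDFT1 (0.34 ± 0.04) and LPIN1 (0.58 ± 0.07). Median effects of the 37 genes were 0.13 in WT and 0.15 in KO cells with 7FTA alone, and 0.24 and 0.26 on top of TNFα.

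Whether TNFα changed the response to 7FTA was tested as an interaction. In WT cells 0 of the 37 genes passed (edgeR, beside 0.0782% of all tested genes called higher and 0.199% lower), 0 with DESeq2 and 13 at an unadjusted p under 0.05, and in KO cells 3 had a larger response to 7FTA with TNFα than without it (beside 0.121% higher and 0.455% lower). These were INSIG1 (0.28 ± 0.06, adjusted p = 0.00379), ACSS2 (0.54 ± 0.12, adjusted p = 0.00949) and FDPS (0.21 ± 0.05, adjusted p = 0.0283). The ACSS2 call was lost without replicate 3 of KO cells with DMSO (0.0795). That of FDPS was lost without replicate 1 (0.0598) or 3 (0.076) of KO cells with DMSO, replicate 1 (0.0562), 2 (0.0551) or 3 (0.0828) with 7FTA, replicate 2 (0.0952) or 3 (0.0933) with TNFα, or replicate 2 with both (0.0579). In WT cells the interaction was 0.52 ± 0.13 for ACSS2, 0.19 ± 0.06 for INSIG1 and 0.17 ± 0.05 for FDPS, with adjusted p of 0.0879, 0.187 and 0.168. The average of both genotypes, a comparison chosen after these values had been seen, called 7 of 37 genes larger and 0 smaller, beside 0.64% and 1.09% of all tested genes. Its values were 0.53 ± 0.09 for ACSS2 (adjusted p = 0.000214), 0.24 ± 0.04 for INSIG1 (0.00024), 0.19 ± 0.04 for FDPS (0.000806) and 0.20 ± 0.04 for ACAT2 (0.00396). MSMO1 followed at 0.20 ± 0.05 (0.00928), TM7SF2 at 0.26 ± 0.06 (0.00988) and MVD at 0.17 ± 0.05 (0.0415). The call for MVD was lost when any 1 of 16 libraries was left out (0.0525 to 0.114).

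Whether the genotype changed the response to 7FTA alone gave 0 calls, among these genes and among all tested genes (0%), with edgeR and with DESeq2. At an unadjusted p under 0.05 edgeR found 4 of the 37 genes and 495 of all tested genes. ACSS2 had the interaction -0.49 ± 0.12, a smaller rise in KO cells, with an adjusted p of 0.999. Averaged over libraries with and without TNFα, again a comparison chosen after the values had been seen, ACSS2 was called at -0.48 ± 0.09 (adjusted p = 0.0249), beside 0.0142% of all tested genes called lower and 0.00711% higher. This call was lost without replicate 1 (0.0722) or 3 (0.0511) of WT cells with 7FTA, replicate 3 of KO cells with DMSO (0.0716), replicate 1 of KO cells with 7FTA (0.0529), replicate 1 (0.0596) or 3 (0.0665) of WT cells with TNFα and 7FTA, or replicate 3 of KO cells with TNFα (0.055). ABCG1 had -0.38 ± 0.08 in the same comparison (adjusted p = 0.053).

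TNFα moved these genes in both directions. Against DMSO, 12 of 37 were called higher and 10 lower in WT cells, beside 19.5% and 18.9% of all tested genes, and 11 higher and 9 lower in KO cells, beside 16.1% and 14.8%. With no filter on low counts the WT split was 9 higher and 12 lower. The median effect was -0.01 in both genotypes, and libraries did not overlap for 23 genes in WT and 24 in KO cells, beside 48% and 41.1% of all tested genes. Called higher in both genotypes were 10 of the 37 (27%, beside 12.7%): HMGCS1, MVD, SQLE, CYP51A1, MSMO1, NSDHL, SC5D, INSIG2, NPC1 and ABCG1. The WT call for MVD was lost without replicate 2 (adjusted p 0.05) or 3 (0.199) of the DMSO group or replicate 1 (0.0979), 2 (0.107) or 3 (0.0719) of the TNFα group. The KO call for SC5D was lost without replicate 3 of the DMSO group (0.186) or replicate 1 (0.0688) or 3 (0.0578) of the TNFα group, and that for NSDHL without replicate 2 of the TNFα group (0.075). Called lower in both were 7 (18.9%, beside 11.3%): TM7SF2, LBR, EBP, SREBF1, SCAP, INSIG1 and ELOVL6. Of these, SCAP lost its WT call without replicate 2 (0.0571) or 3 (0.132) of the DMSO group or replicate 1 (0.0828) or 3 (0.0523) of the TNFα group, and its KO call without replicate 2 of the DMSO group (0.0676) or replicate 1 of the TNFα group (0.0877). In KO cells LBR lost its call without replicate 1 of the DMSO group (0.139) or 1 of the TNFα group (0.0688), and ELOVL6 without replicate 3 of the TNFα group (0.0884). The mevalonate and sterol enzymes had 8 calls higher and 4 lower in WT cells and 8 higher and 4 lower in KO cells. From squalene to cholesterol 50% were called higher and 33.3% lower in WT cells, and 50% and 25% in KO cells. In the mevalonate pathway it was 28.6% and 0%, and 28.6% and 14.3%. The shares called lower thus lay on both sides of those of all tested genes. The WT call of DHCR7 as higher was lost without any 1 of 2 libraries (0.0678 to 0.0701). The KO call of PMVK as lower was lost without any 1 of 4 (0.0775 to 0.267), that of FDFT1 as higher without 1 (0.0702). The regulators SREBF1 and INSIG1 fell in both genotypes with each library left out in turn.

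**Figure D3:**
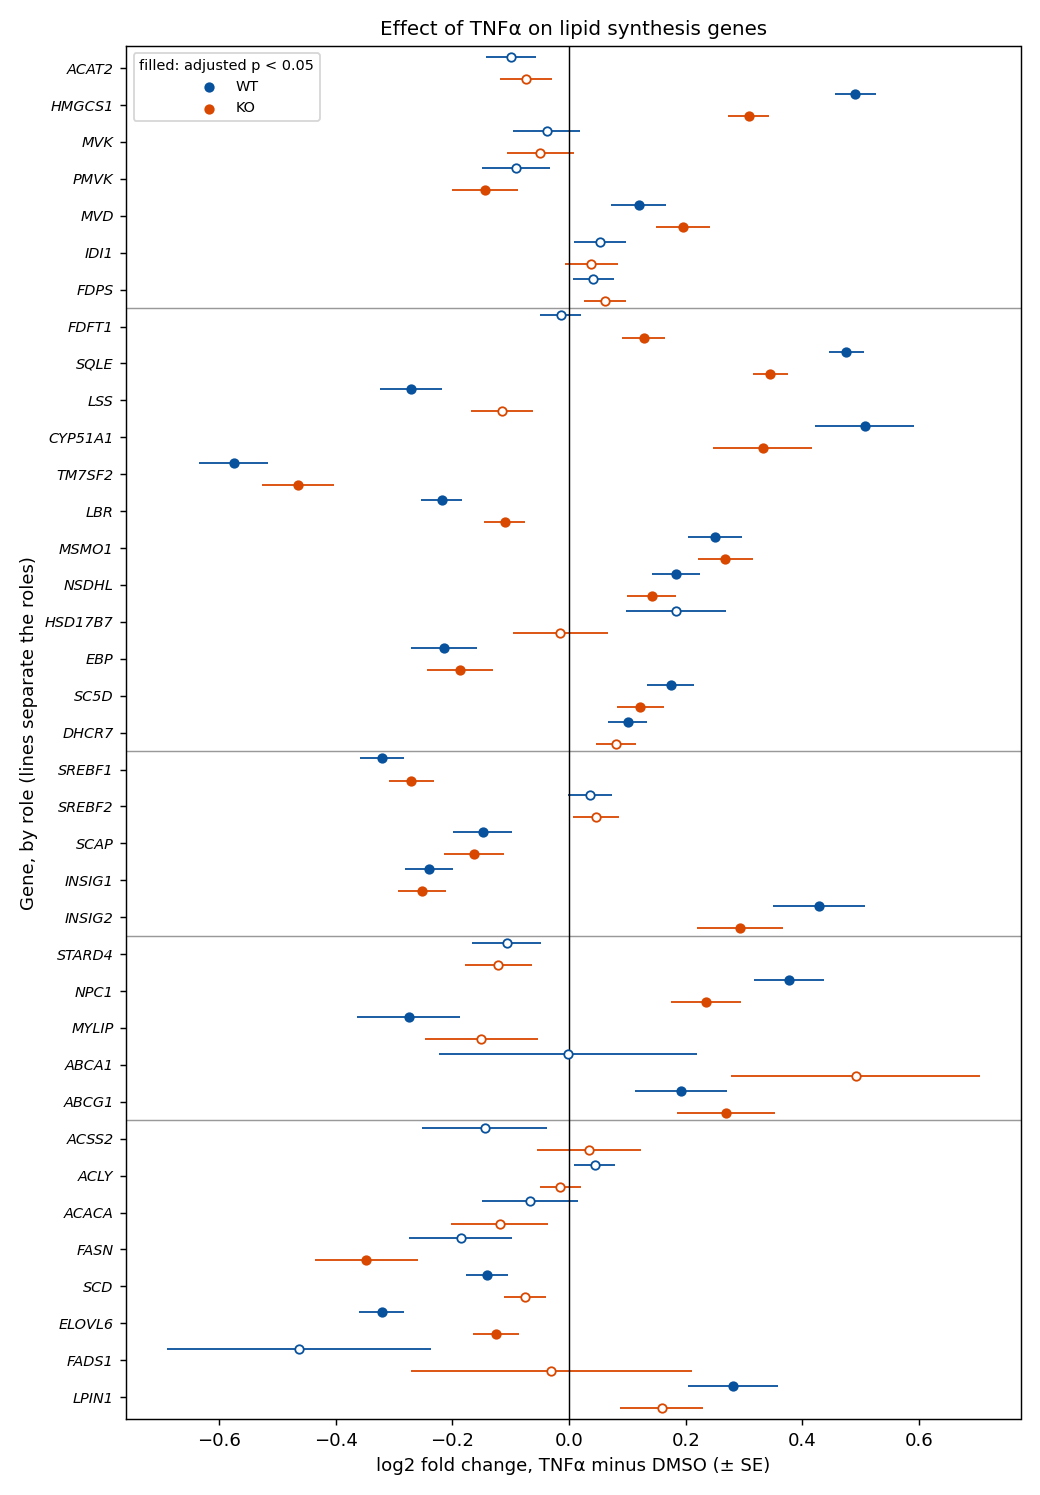
Effect of TNFα against DMSO on each tested gene (x axis, log2 fold change, bars ± SE) in WT and KO cells; filled points passed an adjusted p of 0.05 and grey lines separate the roles. HMGCS1 and SQLE lie to the right and TM7SF2, SREBF1 and INSIG1 to the left in both genotypes.

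HMGCS1 (chr5:43289395-43313512) had the largest effect of TNFα among the mevalonate enzymes. Its WT libraries had 437, 419.8 and 443 CPM with DMSO and 625, 590.4 and 612 with TNFα, or 479, 474 and 487 with 7FTA and 689.8, 655 and 704 with both. In KO cells HMGCS1 had 433, 406 and 416 CPM with DMSO and 521, 512 and 519.97 with TNFα, or 458, 459 and 469 with 7FTA and 654, 624 and 581 with both. Libraries with TNFα lay above those without it, and the rise was 0.49 ± 0.03 in WT (adjusted p = 1.12e-16) and 0.31 ± 0.03 in KO cells (adjusted p = 4.26e-10). SQLE had the smallest p of all these genes, with 0.48 ± 0.03 in WT (adjusted p = 1.78e-18) and 0.35 ± 0.03 in KO cells (adjusted p = 1.64e-13). TM7SF2 (chr11:65111845-65116384), a sterol reductase, moved the other way, from 42.00, 44.04 and 40.7 CPM with DMSO to 28.99, 26.8 and 29.2 with TNFα in WT cells, with 39.5, 40.8 and 40.6 with 7FTA and 29.8, 32.4 and 33.7 with both. TM7SF2 in KO cells had 30.4, 33.7 and 34.96 CPM with DMSO and 23.7, 23.97 and 24.2 with TNFα, or 35.4, 33.3 and 34.8 with 7FTA and 29.3, 31.1 and 30.2 with both. It was lower with TNFα in every library, by -0.57 ± 0.06 in WT (adjusted p = 2.43e-11) and -0.47 ± 0.06 in KO cells (adjusted p = 2.24e-08). LBR, the enzyme known for the same reaction, fell as well (-0.22 ± 0.04 in WT, -0.11 ± 0.04 in KO cells). The demethylase CYP51A1 rose (0.51 ± 0.09 in WT, 0.33 ± 0.09 in KO cells), as did MSMO1 (0.25 ± 0.05 in WT, 0.27 ± 0.05 in KO cells).

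Of the regulators, INSIG2, the second retention protein (chr2:118088452-118110997), rose with TNFα from 19.9, 19.9 and 21.8 to 24.7, 27.04 and 31.4 CPM in WT cells, with 20.9, 23.3 and 22.98 with 7FTA and 26.1, 29.2 and 32.8 with both. In KO cells INSIG2 had 29.4, 26.5 and 28.3 CPM with DMSO and 33.2, 34.00 and 35.96 with TNFα, or 29.1, 25.3 and 27.9 with 7FTA and 35.00, 36.5 and 33.04 with both. Libraries with TNFα did not overlap those with DMSO, and 7FTA left no separation in any background. The rise of INSIG2 was 0.43 ± 0.08 in WT (adjusted p = 1.57e-05) and 0.29 ± 0.07 in KO cells (adjusted p = 0.00136). INSIG1 went down by -0.24 ± 0.04 in WT (adjusted p = 4.19e-06) and -0.25 ± 0.04 in KO cells (adjusted p = 1.91e-06), opposite to its partner. SREBF1 fell in both genotypes (-0.32 ± 0.04, adjusted p = 1.24e-09 in WT; -0.27 ± 0.04, adjusted p = 1.11e-07 in KO cells), and SREBF2 was not called in either (0.04 ± 0.04 and 0.05 ± 0.04). The lysosomal exporter NPC1 rose by 0.38 ± 0.06 in WT and 0.23 ± 0.06 in KO cells. ABCG1 was called at 0.19 ± 0.08 (adjusted p = 0.0485) in WT and 0.27 ± 0.08 (adjusted p = 0.0106) in KO cells, and the WT call was lost when any 1 of 5 libraries was left out (0.0722 to 0.283), the KO call without 1 of 2 (0.0573 to 0.142). ABCA1 was at -0.00 ± 0.22 in WT and 0.49 ± 0.21 in KO cells and not called.

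In the fatty acid branch the called effects of TNFα were falls, with LPIN1 in WT cells (0.28 ± 0.08) as the 1 exception. FASN (chr17:82078333-82098332) had 921, 963 and 1118 CPM in WT cells with DMSO, 896, 865 and 879 with TNFα, 1092, 1129 and 1103 with 7FTA and 1176, 945 and 1074 with both. FASN in KO cells had 832, 897 and 954 CPM with DMSO, 677, 673 and 758 with TNFα, 953, 919 and 1026 with 7FTA and 899, 866 and 1044 with both. The fall with TNFα passed in KO cells (-0.35 ± 0.09, adjusted p = 0.0058) and not in WT cells (-0.19 ± 0.09, adjusted p = 0.113), although libraries did not overlap in either. The difference between the genotypes was not called for FASN. ELOVL6 fell by -0.32 ± 0.04 in WT and -0.12 ± 0.04 in KO cells, and SCD by -0.14 ± 0.04 in WT cells. Between the genotypes the effect of TNFα differed for 2 of the 37 genes, 1 called higher and 1 lower (2.7% each). Over all tested genes 2.05% were called higher and 1.5% lower, so such calls were about as frequent as elsewhere. The rise of HMGCS1 was smaller in KO cells (interaction -0.18 ± 0.05, adjusted p = 0.0212) and so was the fall of ELOVL6 (0.20 ± 0.06, adjusted p = 0.0299). The HMGCS1 call was lost without replicate 2 of WT cells with DMSO (0.103), replicate 1 of KO cells with DMSO (0.0805), replicate 1 (0.102) or 3 (0.0605) of WT cells with TNFα, or replicate 2 of KO cells with TNFα (0.058). The ELOVL6 call was lost without replicate 1 (0.0523) or 3 (0.0624) of WT cells with DMSO, replicate 2 (0.0891) or 3 (0.0502) of KO cells with DMSO, replicate 2 (0.0712) or 3 (0.0737) of WT cells with TNFα, or replicate 2 of KO cells with TNFα (0.129).

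KO cells had lower levels than WT cells for many of these genes already with DMSO alone. With DMSO 19 of 37 were called lower and 5 higher, beside 24.1% and 24% of all tested genes; with 7FTA 16 lower and 3 higher (24.9% and 24.6%); with TNFα 16 lower and 4 higher (25.1% and 25.5%); and with both 13 lower and 5 higher (26.1% and 25.8%). The median differences were -0.12, -0.08, -0.11 and -0.09. Libraries of the genotypes did not overlap for 22, 23, 25 and 20 of the 37 genes, beside 54.4%, 57.8%, 56.6% and 55.2% of all tested genes, so the separation itself was about as frequent as elsewhere. The 4 comparisons use different libraries. Called lower in KO cells in each of them were 9 genes (24.3%, beside 17%): ACAT2, FDPS, FDFT1, SQLE, DHCR7, SREBF2, MYLIP, ABCG1 and SCD. Called higher in each were INSIG2 and LPIN1 (5.41%, beside 15.9%). The call for INSIG2 with TNFα and 7FTA was lost without replicate 1 of WT cells with both (adjusted p 0.0512).

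With DMSO the genes with the smallest p were FDFT1 (-0.93 ± 0.04, 1.91-fold lower), ACAT2 (-0.71 ± 0.04), DHCR7 (-0.41 ± 0.03), SREBF2 (-0.44 ± 0.04), SCD (-0.46 ± 0.04), SQLE (-0.24 ± 0.03) and FDPS (-0.25 ± 0.04). ACSS2 (0.66 ± 0.09) and LPIN1 (0.47 ± 0.07) were higher in KO cells, and MYLIP was lower (-0.55 ± 0.09). ABCG1 was lower by -0.40 ± 0.08, and SREBF1 by -0.12 ± 0.04 (adjusted p = 0.00479, or 0.0584 without replicate 1 of KO cells with DMSO). INSIG1 and ABCA1 were not called under any of the 4 treatments. With 7FTA the front genes were FDFT1 (-0.92 ± 0.04), ACAT2 (-0.77 ± 0.04), DHCR7 (-0.47 ± 0.03), SCD (-0.48 ± 0.04), SREBF2 (-0.38 ± 0.04), FDPS (-0.35 ± 0.03), ABCG1 (-0.72 ± 0.08), LPIN1 (0.57 ± 0.07), SQLE (-0.19 ± 0.03) and SREBF1 (-0.21 ± 0.04). ACSS2 was not called there (0.16 ± 0.08, adjusted p = 0.0906). With TNFα they were FDFT1 (-0.79 ± 0.04), ACAT2 (-0.68 ± 0.04), DHCR7 (-0.43 ± 0.03), SQLE (-0.37 ± 0.03), SREBF2 (-0.42 ± 0.04), SCD (-0.39 ± 0.04), ACSS2 (0.83 ± 0.10), HMGCS1 (-0.23 ± 0.03), FDPS (-0.23 ± 0.04) and LPIN1 (0.35 ± 0.07). With both agents FDFT1 (-0.70 ± 0.04), ACAT2 (-0.67 ± 0.04), DHCR7 (-0.35 ± 0.03), SREBF2 (-0.40 ± 0.04), ABCG1 (-0.78 ± 0.08), SCD (-0.41 ± 0.04), LPIN1 (0.56 ± 0.07), FDPS (-0.28 ± 0.03), SQLE (-0.24 ± 0.03) and MYLIP (-0.50 ± 0.09) led. By role, the genes from squalene to cholesterol had 8, 6, 5 and 4 of 12 called lower in the order of treatments above, and the mevalonate pathway 3, 2, 4 and 3 of 7. With DMSO, leaving out any 1 of 5 libraries ended the lower call for LBR (adjusted p 0.0534 to 0.231). It took any 1 of 4 for EBP (0.0576 to 0.319) and any 1 of 3 for LSS (0.0778 to 0.264). The same held for ACACA and FADS1 with any 1 of 3 (0.0549 to 0.129 and 0.0659 to 0.25). The higher call for NPC1 was lost with any 1 of 4 (0.0691 to 0.25).

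The position of the genes on the chromosomes was set beside these differences. For each gene, the difference of KO minus WT cells (log2, mean of the 4 treatments) was compared with the median of up to 50 tested genes nearest to it on its chromosome, for which the median over all genes was 0.01. FDFT1 was at -0.84 and its neighbours at -0.55, and ACAT2 was at -0.71 and its neighbours at -0.41. The genes around both were thus lower in KO cells too, and what part of either difference goes with its region was not tested. SQLE was at -0.26 beside -0.13. DHCR7 was at -0.41 beside 0.10, SREBF2 at -0.41 beside -0.01, SCD at -0.44 beside 0.08, MYLIP at -0.49 beside 0.09 and ABCG1 at -0.56 beside 0.03, and the neighbours of these 5 were not lower on balance. FDPS was at -0.28 beside 0.07, and of the genes higher in KO cells LPIN1 was at 0.49 beside -0.01, INSIG2 at 0.32 beside 0.04 and ACSS2 at 0.50 beside 0.13.

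**Figure D4:**
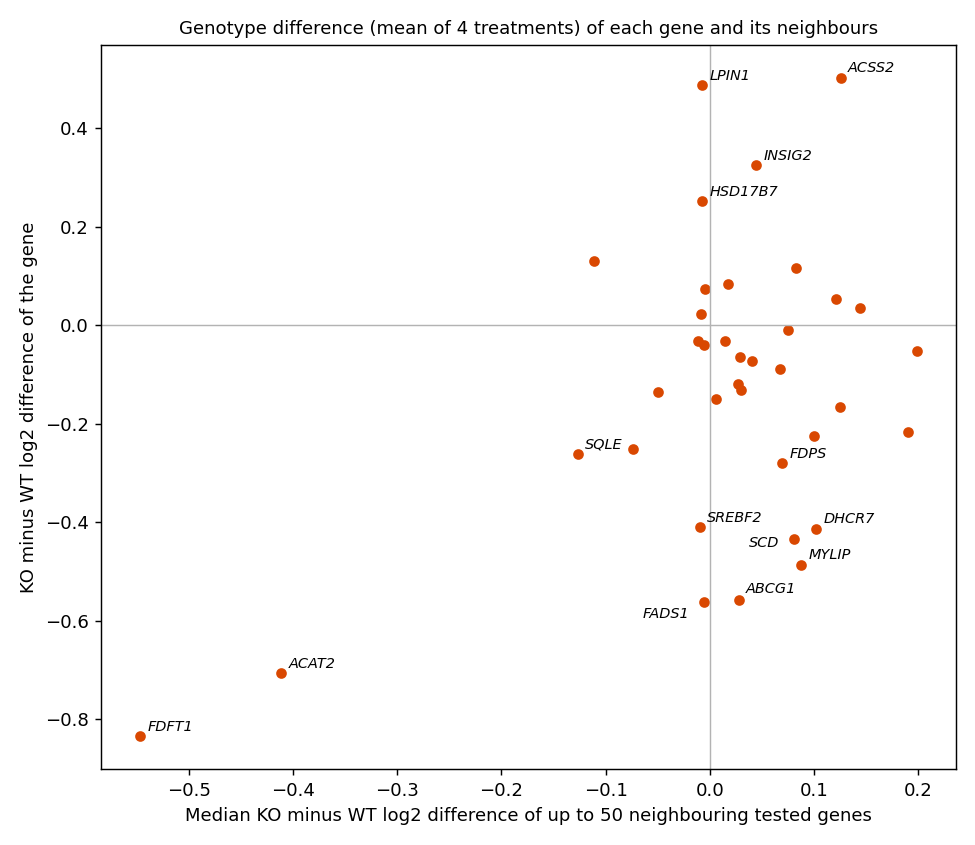
KO minus WT log2 difference of each tested gene (y axis, mean of 4 treatments) against the median difference of up to 50 tested genes nearest to it on its chromosome (x axis). FDFT1 (-0.84 beside -0.55) and ACAT2 (-0.71 beside -0.41) lie at the lower left, apart from the other genes. The neighbours of those lie between -0.126 (SQLE) and 0.199 (CYP51A1).

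Genes of neighbouring steps were counted from lists outside the 38, with 7FTA over the mean of the 4 backgrounds, where 8.86% of all tested genes were called higher and 7.58% lower. Other sterol and isoprenoid enzymes had 3 of 6 called higher and 0 lower, among them GGPS1, which makes geranylgeranyl pyrophosphate (0.14 ± 0.04). Further genes of fatty acid and glycerolipid synthesis had 6 of 12 higher and 0 lower, led by ACSL1, which activates fatty acids (0.34 ± 0.03), and ME1, a source of NADPH (0.23 ± 0.02). LXR and its other targets had 2 of 3 higher, NR1H3 (the gene of LXRα, 0.24 ± 0.03) and LPCAT3, a phospholipid acyltransferase (0.16 ± 0.02). Sterol sensing and SREBP processing genes had 1 of 9 higher (11.1%), the protease MBTPS2 (0.14 ± 0.04), and 1 lower, PAQR3 (-0.12 ± 0.03). Esterification, trafficking and lipoprotein receptor genes had 4 of 10 higher and 2 lower, and the lower ones were SOAT1, which esterifies cholesterol (-0.39 ± 0.12), and GRAMD1A, a sterol transporter (-0.24 ± 0.06). SOAT1 stood about as low as ABCA1 and FADS1, with group means from 0.675 (WT cells with 7FTA) to 3.07 CPM (KO cells with TNFα). Fatty acid oxidation had 1 of 8 higher (12.5%), CPT1A, which moves fatty acids into mitochondria (0.12 ± 0.03). The shares called higher for this list and for sterol sensing were close to that of all tested genes. The medians of these lists were 0.06, 0.11, 0.16, -0.01, 0.07 and 0.01, beside 0.18 for the 37 genes.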

How the data were processed

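RNA sequencing of 24 libraries of HT-29 cells (8 groups of 3) was used as raw gene counts deposited by the authors, 1 column per library. Per the submitters' processing notes, the tools were featureCounts 1.6.4, STAR 2.6.1d and DESeq2 1.20.0, and the build was GRCh38; which step each served, the strand setting and the annotation release are not given in the sources used here. Group and replicate were read from the sample titles.

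Tests were run in edgeR 4.0.16 (with limma 3.58.1, under R 4.3.3), and DESeq2 1.42.0 was an alternative. The filter on low counts, filterByExpr given the 8 groups, kept 14059 of 30061 genes with a count. TMM factors ran from 0.944 to 1.05, and a robust quasi-likelihood fit with a mean for each group was made to all libraries. The tests were two-sided, and the SE is the size of the log2 fold change over the square root of F. The biological coefficient of variation was 4.06%. The other alternatives were DESeq2's scaling within edgeR, no filter, the replicate number as a block, only the libraries compared, and each library left out in turn. Positions and exon lengths came from GENCODE 29 on GRCh38.

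The 38 genes, the lists and the rule for named genes were chosen with earlier results of these data known. A pair of genes of the lists outside the 38 is not reported here and enters no count of a list. The rule gives values per library for the 3 genes of each role with the smallest p for 7FTA over the 4 backgrounds and the called gene with the largest TNFα effect, names up to 10 called genes per comparison by smallest p, names all called in an interaction, and always names SREBF1, SREBF2, INSIG1, ABCA1 and ABCG1. The steps were tested on simulated data for 7FTA in WT cells over 13839 genes: of 98 genes shifted by 0.5 (log2) 71.4% were recovered, of 99 shifted by 1 81.8%, and 2.58% of the calls were false. Smaller shifts were not simulated, so recovery is not known near 0.13, the median effect of the 37 genes in that comparison.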

Additional observations from a re-analysis of the deposited data

Results flagged for a closer look

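These genes are given here because the effect of an agent on them differed between backgrounds in a test of the difference itself (an interaction, log2 ± SE, edgeR adjusted p). The rise of HMGCS1 with TNFα was smaller in KO than in WT cells, by -0.18 ± 0.05 (0.0212), and the fall of ELOVL6 with TNFα was smaller in KO cells, by 0.20 ± 0.06 (0.0299). In this test 2.7% of the 37 genes were called in each direction, close to 2.05% higher and 1.5% lower over all tested genes. In KO cells the rise with 7FTA was larger with TNFα than without it for INSIG1 (0.28 ± 0.06, 0.00379), ACSS2 (0.54 ± 0.12, 0.00949) and FDPS (0.21 ± 0.05, 0.0283). The same difference averaged over both genotypes, a comparison chosen after seeing the data, was 0.53 ± 0.09 for ACSS2 (0.000214), 0.24 ± 0.04 for INSIG1 (0.00024), 0.19 ± 0.04 for FDPS (0.000806), 0.20 ± 0.04 for ACAT2 (0.00396), 0.20 ± 0.05 for MSMO1 (0.00928), 0.26 ± 0.06 for TM7SF2 (0.00988) and 0.17 ± 0.05 for MVD (0.0415). The rise of ACSS2 with 7FTA, averaged over libraries with and without TNFα (also chosen after seeing the data), was smaller in KO cells by -0.48 ± 0.09 (0.0249). The libraries on which these calls depend are named beside them in the report.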

How the results depend on the processing

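No effect of a tested gene that was called changed direction under any alternative run. The number of genes called stayed within 1.5 times for the comparisons of 2 groups and for 7FTA over the 4 backgrounds, with 1 exception: for 7FTA in KO cells leaving out 1 library gave 11 to 16 genes in place of 17. With leaving out 1 library, 7FTA in WT cells gave 9 to 12 and the mean 29 to 33. The interactions moved more. Genotype by TNFα gave 1 gene with only the libraries compared (2 as reported) and 0 to 2 with 1 library left out. 7FTA by TNFα in WT cells gave 2 genes with no filter (0 as reported) and 0 to 3 with 1 library left out; in KO cells it gave 5 with the replicate block (3 as reported) and 2 to 4 with 1 library left out. Genotype by 7FTA averaged over TNFα gave 2 genes (1 as reported) with DESeq2's scaling, with no filter, with the replicate block and with DESeq2, the added gene being ABCG1, and 0 to 2 with 1 library left out. 7FTA by TNFα averaged over genotypes gave 6 to 10. Fitting only the libraries compared does not apply to the means, which use all groups. Between same-numbered libraries the residuals had correlations from -0.0649 to 0.119, with 0 of 28 pairs of groups over 0.1 throughout, so the numbers were not taken to pair the samples. With the replicate block 27 further calls of single genes were made and 0 lost, and the counts for 7FTA were 17 (WT), 18 (KO), 24 and 28 (with TNFα). Among the tested genes of the set, low counts limit ABCA1 and FADS1, whose SE was 0.11 for 7FTA over the 4 backgrounds.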
